A study of Mus musculus with 26 samples.

Results

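The sites described here are positions in the genome where the coactivator p300 was listed in day 6 mouse motor neurons and not in day 5 ones. They are the events of the day 6 p300 list with no event of the day 5 p300 list within 500 bp: 743 of the 1337 day 6 events, or 55.6% of them. They are called new sites below, in the sense of not listed on day 5. The other 594 day 6 events had a day 5 event within 500 bp and are called kept sites. Another class, used for comparison, is the 18705 of 19398 day 5 events with no day 6 event within 500 bp. The members were chosen by presence in the day 6 p300 list and absence from the day 5 one, so their p300 values are given as a description, with no test.

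p300, encoded by Ep300, is an acetyltransferase that transcription factors recruit to enhancers and promoters. It acetylates histone H3 at lysine 27, and the resulting mark, H3K27ac, is commonly read as a sign of an active regulatory element. ATAC-seq marks DNA that a transposase can reach, and open DNA is where most transcription factors are found. Isl1, a LIM homeodomain factor, and Onecut1, a factor with a cut domain and a homeodomain, are both made in newly born spinal motor neurons, where Isl1 works with Lhx3 to install the motor neuron programme.

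The cells were Ainv15 embryonic stem cells of the line labelled iCre, differentiated to spinal motor neurons. All day 5 and day 6 cultures received 1 uM retinoic acid (RA) and 0.25 uM of the Hedgehog pathway agonist SAG on day 2. The Notch pathway inhibitor DAPT, at 5 uM, was given on days 4 and 5 to the day 6 cultures and on day 4 to the day 5 cultures. The day 4 cultures had RA and SAG without DAPT, the day 2 cells had received none of these, and the day 0 DNase-seq came from undifferentiated cells of a line labelled HBG3. Events labelled Ngn2 and Lhx3 were precipitated on day 4 with an antibody to the V5 tag, from cells in which doxycycline induced Ngn2 or the factors of the NIL line. The NIL cultures had RA without SAG, and the Ngn2 ones RA and SAG. Whether a line was 1 clone was not stated.

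There was 1 library for each mark and day, except for Isl1 (2 libraries on each of days 5 and 6) and H3K27ac on day 4 (2 libraries). The deposited lists give no read depth, and list lengths differed: ATAC had 52645 peaks on day 6 and 55131 on day 5, the H3K27ac lists 47275 peaks (day 6) and 24525 peaks (day 5), and those of Onecut1 63488 events (day 6) and 23245 events (day 5). The 4 Isl1 lists were short: replicates 1 and 2 held 1470 and 1560 events on day 6, and 2260 and 1079 events on day 5. Of 8 motor neuron markers, 8 reached 1 FPKM on day 6 or 5, and on the log2(FPKM + 1) scale 2 of them were at least 2-fold higher on day 6 (Slc5a7 and Prph), 2 were at least 2-fold lower (Lhx3 and Lhx4) and the others, with Isl1 at 116.5 FPKM on day 6 and 88.0 FPKM on day 5, were within 2-fold. The 5 progenitor markers were all at least 2-fold lower on day 6 on that scale, where 6.57% of all 11164 genes at 1 FPKM or more were higher and 6.19% lower, with Olig2 at 0.9496 FPKM on day 6 and 17.3 FPKM on day 5. None of the markers of pluripotent cells (3 genes), glia (4 genes) or mesoderm, endothelium and blood (4 genes) reached 1 FPKM on either day, while 3 of 5 markers of V2 and V3 interneurons and 2 of 5 of V0, V1 and dorsal interneurons did. Sim1, a V3 marker, was at least 2-fold higher on day 6 (3.24 FPKM on day 6 and 0.529 FPKM on day 5), and Nkx2-2 had 5.18 FPKM on day 6 and 8.86 FPKM on day 5.

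The new sites had fewer p300 reads than the kept sites. Precipitated reads per event, as the authors' list gives them, had a median of 23 at new sites (quartiles 19.05 and 28, range 11 to 78.4), against 33 at kept sites (quartiles 27 and 42, range 16 to 147). The scaled control reads had a median of 3.3 at new sites and 6.5 at kept sites, so that the authors' fold of precipitated over control reads was higher at the new sites, with a median of 7.5 against 5 at kept sites. A fold of 5 or more was reached by 603 new sites (81.2%) and by 302 kept sites (50.8%). The authors' −log10 q had a median of 2.5 at new sites, with a highest value of 12.89, and a median of 2.97 at kept sites, with a highest value of 19.02. Many new sites lay close to the lowest value of the list: their lowest −log10 q was 2.01 and their first quartile 2.19. At kept sites these were 2.02 and 2.35. It reached 5 at 18 new and 72 kept sites. Few new sites were strongly precipitated: 24 had 40 reads or more, against 179 kept sites, and 194 had fewer than 20 reads, against 28 kept sites. On day 5, the events next to the kept sites had a median of 65.7 reads in the day 5 list, on that library's own scale.

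**Figure D1:**
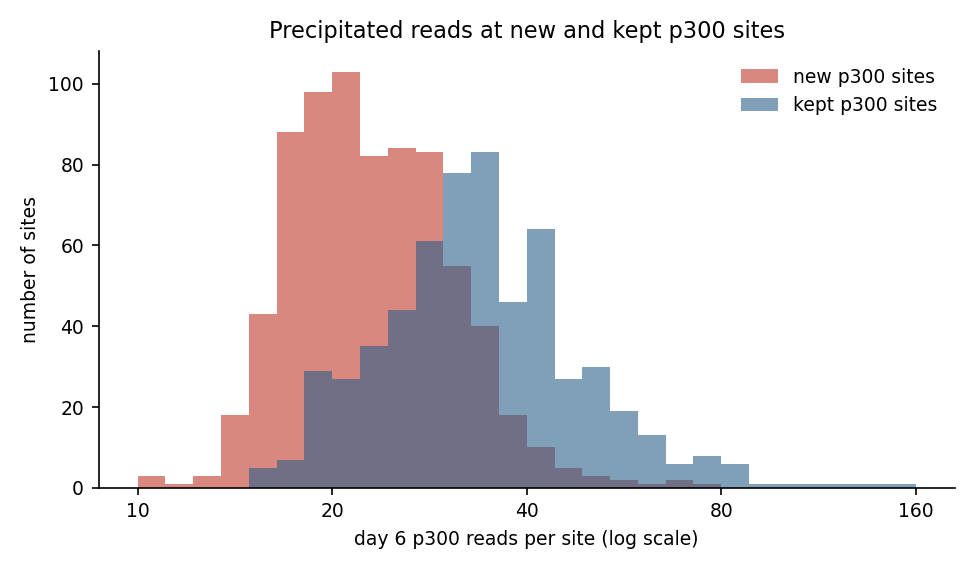
Number of new (red) and kept (blue) p300 sites by precipitated reads of the day 6 p300 library, on a log axis. The distributions overlap, and the new sites lie lower, with a median of 23 reads against 33 at kept sites.

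Most new sites were far from any p300 event of day 5. The distance to the nearest one had a median of 44051 bp at the new sites (range 508 to 3367876 bp), and 136 of 743 (18.3%) had one within 10000 bp. Of the 13 new sites with a day 5 event within 1000 bp, the 5 nearest to the limit lay 508 bp (chr6:115494192), 529 bp (chr15:85484432), 539 bp (chr5:44173930), 619 bp (chr17:73421965) and 643 bp (chr7:88357481) from one. Those 5 sites had between 17.6 and 34 reads on day 6. Just inside the limit, the 5 kept sites nearest to it lay 376 to 492 bp from a day 5 event and had 18 to 25.8 reads. The class of the sites at 508 and 492 bp therefore turned on a few bases. The p300 reads of the 5 new and the 5 kept sites overlapped in range. The new sites were also isolated from each other, since 8 gaps between neighbouring new sites were of 500 bp or less and 16 new sites had a kept site within 10000 bp. Kept sites were isolated too, with 10 such gaps of 500 bp or less among 594 sites. No chance level was computed for any of these distances. Coordinates are of build mm9, as in the deposited lists. Genes near the sites were not assigned and no sequence of a site is shown, because an mm9 annotation and genome were not used here.

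The new sites were compared with the kept sites for 14 marks mapped in other libraries. An ATAC peak or a factor event counted when it lay within 200 bp of the p300 event, and an H3K27ac peak within 500 bp. The background is the share of positions 10 kb to each side of the new sites, 1486 positions, with the same mark. Shares were compared by Fisher's exact test, two-sided, with Benjamini-Hochberg adjustment over the 14 marks. Sites are not replicates of a condition, so each p-value compares 2 classes of sites within these libraries and does not measure error between cultures. By the rule, kept sites were listed in both p300 libraries and new sites in that of day 6 alone. The day 5 p300 list thus defines the classes, and differences in day 5 marks are not independent of the rule. Differences in day 6 marks are not free of it either. Kept sites were listed in a further p300 library, and many sites had the same mark on both days. How much of the differences the rule builds in was not tested. Intervals given with shares are exact (Clopper-Pearson) 95% binomial intervals and cover counting error over sites alone.

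Open chromatin was less frequent at new sites than at kept sites. An ATAC peak of day 6 lay within 200 bp of 427 new sites (57.5%, interval 53.8 to 61.1%), against 533 kept sites (89.7%, interval 87.0 to 92.0%) and a background of 1.14%. The odds ratio was 0.155 (0.112 to 0.211), and the adjusted p was 4e-41 in Fisher's exact test. The peaks are 100 bp wide at the median, and the shares depend on the distance allowed: a day 6 peak covered the p300 position itself at 186 new sites (25.0%), against 210 kept sites (35.4%, adjusted p 9.1e-05). With the distance of 200 bp and only peaks at or above the median score of the list, the shares were 31.9% of new sites and 73.1% of kept sites. On day 5, before the p300 event was listed, 305 new sites (41.05%) already had an ATAC peak, against 504 kept sites (84.8%) and a background of 1.68% (odds ratio 0.125, adjusted p 6.6e-62). The peaks at new sites were of ordinary height. Their day 6 scores had a median at percentile 51.3 of the day 6 ATAC list, against percentile 72.0 for the peaks at kept sites.

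New sites were open less often than kept sites on the earlier days as well. On day 4, an ATAC peak lay at 111 new sites (14.9%), against 214 kept sites (36.0%) and a background of 1.08% (adjusted p 1.1e-18). On day 2 it lay at 90 new sites (12.1%), against 151 kept sites (25.4%) and a background of 2.42% (adjusted p 8e-10). In the day 0 DNase-seq list, 11 new sites (1.48%) had an entry, against 35 kept sites (5.89%) and a background of 0.606% (adjusted p 1.8e-05). Followed over days 2, 4, 5 and 6, 251 new sites had no ATAC peak on any day, 156 had one on day 6 alone, 165 on days 5 and 6, and 49 on all 4 days. Among kept sites, 28 had none, 44 had one on day 6 alone, 271 on days 5 and 6, and 113 on all 4 days.

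H3K27ac at new sites was frequent on day 6 and infrequent on day 5. On day 6, 414 new sites (55.7%, interval 52.1 to 59.3%) had an H3K27ac peak within 500 bp, against 534 kept sites (89.9%) and a background of 4.85%. The odds ratio was 0.142 (0.103 to 0.193), with an adjusted p of 4.7e-45 in Fisher's exact test. On day 5, 82 new sites (11.0%, interval 8.87 to 13.5%) had one, against 267 kept sites (44.95%) and a background of 1.82% (odds ratio 0.152, adjusted p 8.8e-45). A day 6 peak covered the p300 position at 209 new sites (28.1%), against 280 kept sites (47.1%, adjusted p 2.8e-12), and a day 5 peak at 25 new sites (3.37%), against 76 kept sites (12.8%, adjusted p 3.2e-10). On day 4, a peak in at least 1 of the 2 libraries lay at 81 new sites (10.9%), against 189 kept sites (31.8%) and a background of 2.56% (adjusted p 6.9e-21). Replicate 2 of day 4 is labelled iCre like replicate 1, but its deposited list carries the line name HBG3. With replicate 1 alone the counts were 69 new sites (9.29%) and 182 kept sites (30.6%), and with replicate 2 alone 54 new sites (7.27%) and 139 kept sites (23.4%). The day 6 H3K27ac peaks next to new sites were narrower than those next to kept sites, with a median width of 688.5 bp against 967.5 bp. Their scores lay at a median percentile of 62.0 of the day 6 list, against 76.5 for the peaks next to kept sites. Among the 18 new and 72 kept sites with a −log10 q of 5 or more, ATAC and H3K27ac of days 6 and 5 were again less frequent at new sites, and none of these differences passed Fisher's exact test (adjusted p 0.27 to 0.67).

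**Figure D2:**
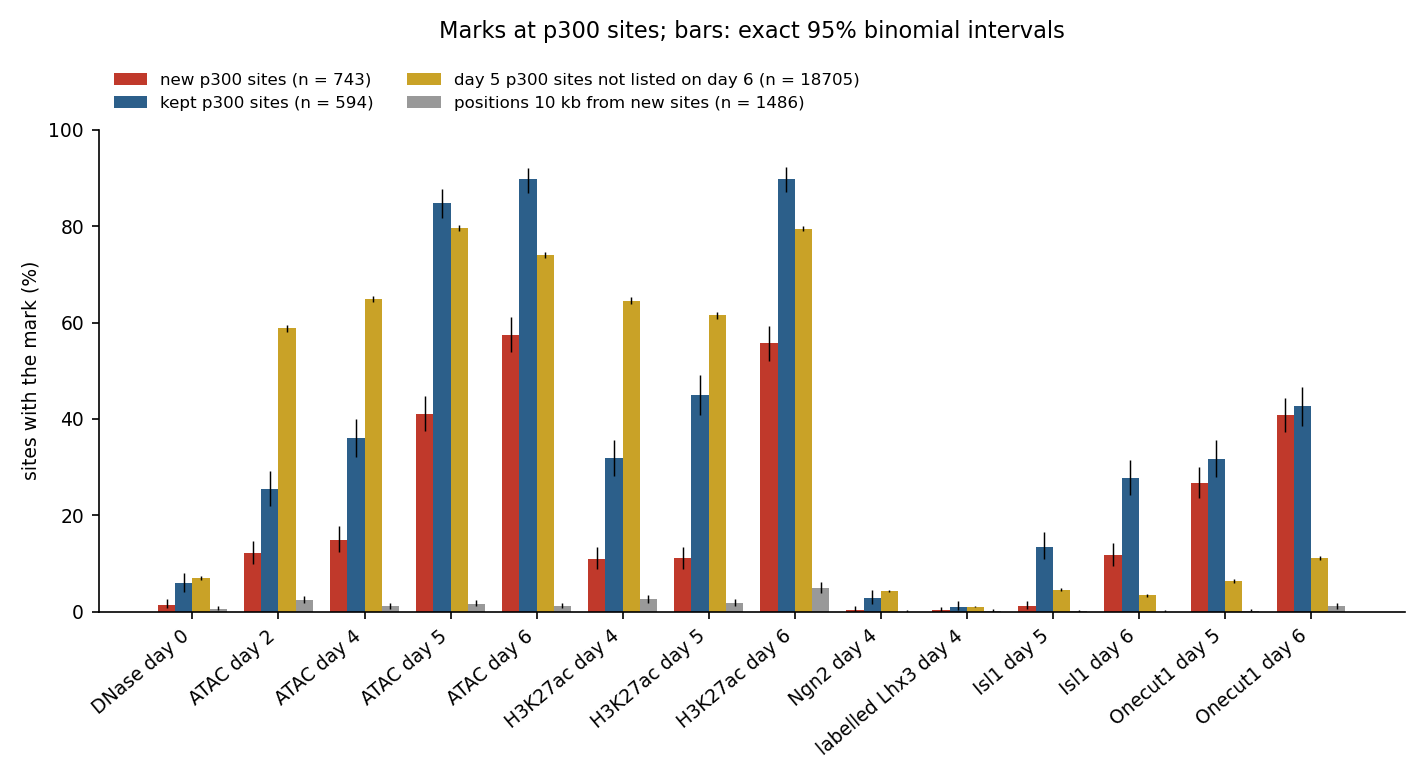
Share of sites with each of 14 marks, in percent, for new p300 sites (red), kept p300 sites (blue), day 5 p300 sites not listed on day 6 (yellow) and positions 10 kb from new sites (grey); lines on the bars are exact 95% binomial intervals. New sites lie below both other p300 classes for open chromatin and H3K27ac, and at 40.8% for day 6 Onecut1, beside 42.6% of kept and 11.1% of the other day 5 sites.

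The 2 days were then set side by side at each site. At the new sites, 76 had an H3K27ac peak on both days, 338 on day 6 alone, 6 on day 5 alone and 323 on neither. Day 6 alone held 45.5% of new sites and 45.8% of kept sites, and both days together held 10.2% of new sites and 44.1% of kept sites. No peak on either day was found at 43.5% of new sites and 9.26% of kept sites. The classes thus differed among sites without a day 5 peak. Of the 661 such new sites 338 had a day 6 peak, against 272 of the 327 such kept sites. Of the 414 new sites with a day 6 peak, 18.4% had one on day 5 as well, against 49.1% of the 534 such kept sites. For ATAC, 260 new sites had a peak on both days, 167 on day 6 alone, 45 on day 5 alone and 271 on neither. Of the 427 new sites open on day 6, 60.9% were open on day 5 as well, against 90.4% of the 533 such kept sites. The whole H3K27ac and Onecut1 lists were also longer on day 6 than on day 5, and the ATAC list was shorter. In an alternative chosen after seeing the data, the longer list of each pair was cut by score to the length of the shorter. Then 40.8% of new sites had H3K27ac on day 6, against 11.0% on day 5. Kept sites were also higher on day 6 under this cut, with 79.0% on day 6 and 44.95% on day 5. With 1 library a day, these day differences have no replicate error and no test.

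**Figure D3:**
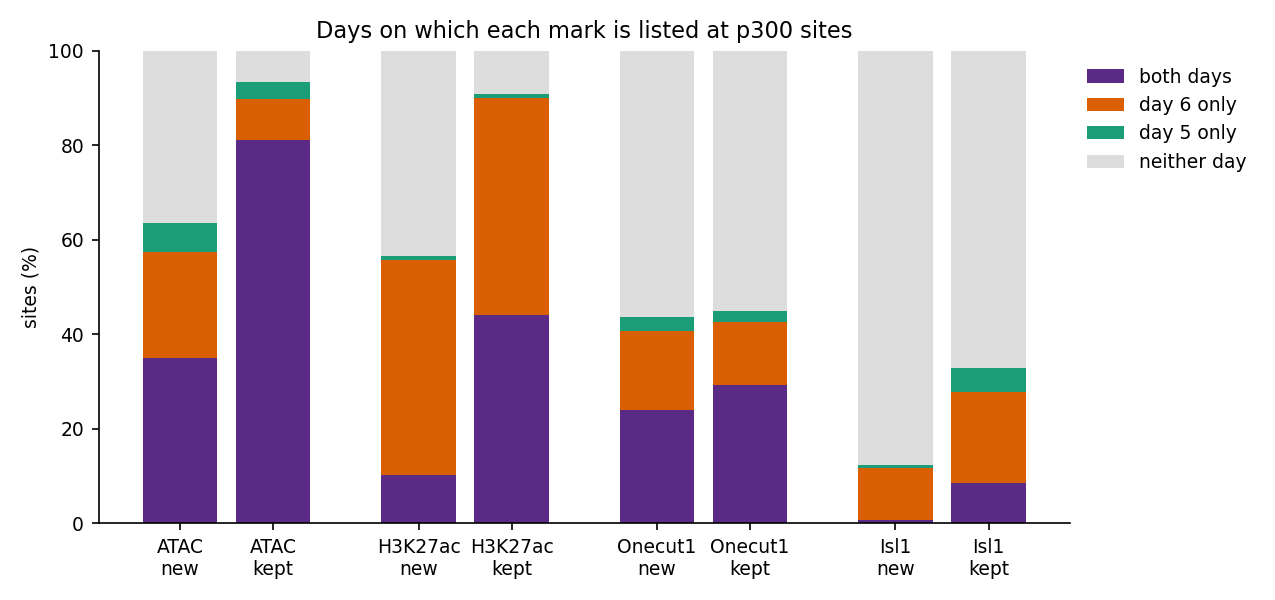
Share of new and kept p300 sites, in percent, with each mark on both days, on day 6 alone, on day 5 alone or on neither day. H3K27ac was listed on day 6 alone at 338 of 743 new sites (45.5%) and 272 of 594 kept sites (45.8%), and on both days at 76 new sites (10.2%) and 262 kept sites (44.1%). It was listed on neither day at 323 new sites (43.5%) and 55 kept sites (9.26%).

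Onecut1 lay at new sites about as often as at kept sites. On day 6, 303 new sites (40.8%, interval 37.2 to 44.4%) had a Onecut1 event within 200 bp, against 253 kept sites (42.6%, interval 38.6 to 46.7%) and a background of 1.08%. The odds ratio was 0.928 (0.741 to 1.16), and the difference did not pass Fisher's exact test (adjusted p 0.54). On day 5, 199 new sites (26.8%) had a Onecut1 event, against 188 kept sites (31.65%) and a background of 0.202%, which did not pass either (odds ratio 0.790, 0.619 to 1.01, adjusted p 0.061). Among sites with a fold of 5 or more, Onecut1 passed as less frequent at new sites on both days (adjusted p 0.026 on day 6 and 0.01 on day 5). The Onecut1 events at new sites were among the strongest of the day 6 list. Their reads had a median of 106.7, at percentile 94.4 of a list whose median was 16, against 155 reads and percentile 97.1 at kept sites. They lay a median of 29 bp from the p300 event in both classes.

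Onecut1 on both days was found at 178 new sites, on day 6 alone at 125, on day 5 alone at 21 and on neither day at 419. Among kept sites, these counts were 174, 79, 14 and 327. Of the sites with Onecut1 on day 6, 58.75% of the new ones and 68.8% of the kept ones had it on day 5 too. Thus 199 new sites held a Onecut1 event on day 5 without a listed p300 event on that day. Those day 5 events were weaker than at kept sites, with a median of 25 reads (percentile 79.7 of the day 5 list) against 51.5 reads (percentile 91.3).

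**Figure D4:**
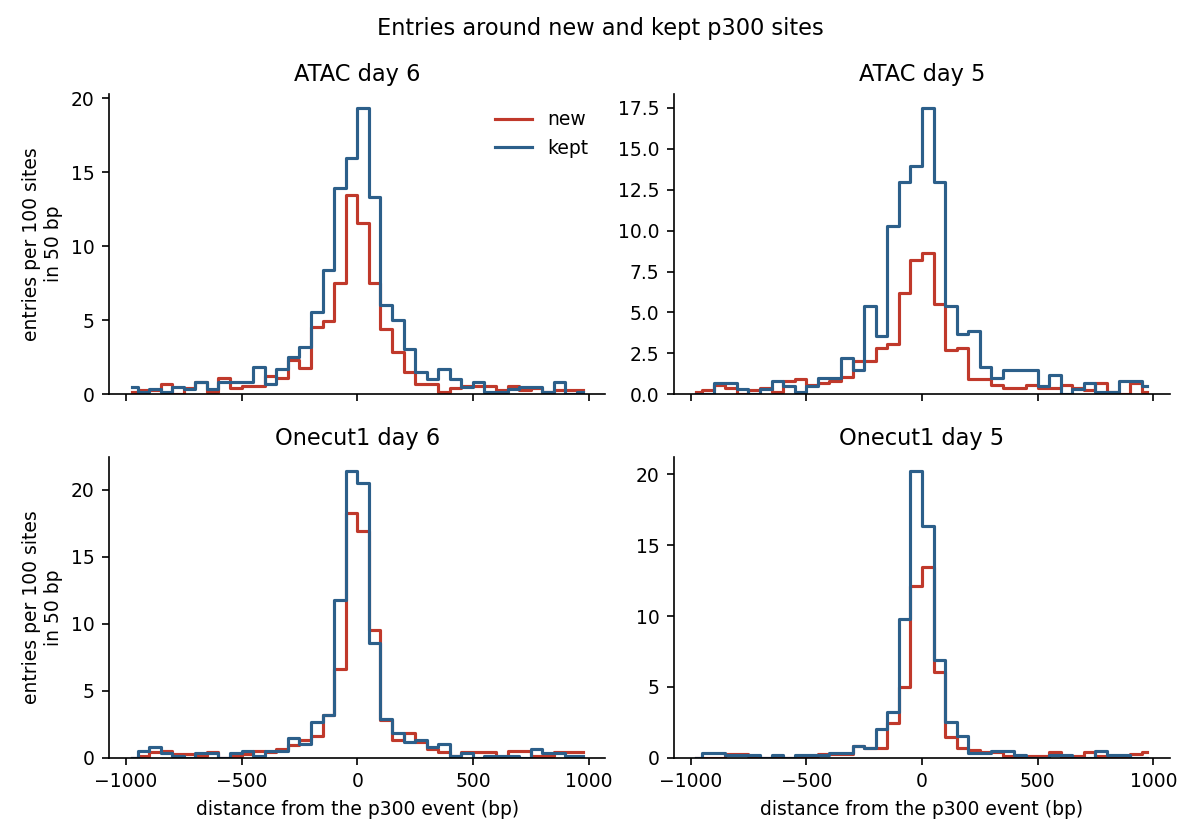
ATAC peak centres and Onecut1 events per 100 sites, in steps of 50 bp, by distance from the p300 event, for new (red) and kept (blue) sites. Both marks centre on the p300 event in both classes; in the 50 bp just below it, day 6 Onecut1 reached 18.3 events per 100 new sites and 21.4 per 100 kept sites. Day 6 ATAC had 13.5 peaks per 100 new sites and 16.0 per 100 kept sites in that step, and 11.6 per 100 new sites and 19.4 per 100 kept sites in the 50 bp just above it.

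Since the new sites had fewer p300 reads, and marks were more frequent at new sites with more reads, the classes were also compared within 5 bands of p300 reads, an alternative chosen after seeing the data (exact Cochran-Mantel-Haenszel test, adjusted over 14 marks). For Onecut1 the direction turned: within bands, the day 6 odds ratio was 1.85 (1.40 to 2.45, adjusted p 1.3e-05), and the share was higher at new sites in 5 of 5 bands. At 20 to 25 reads, 101 of 247 new sites (40.9%) had day 6 Onecut1, against 17 of 78 kept sites (21.8%). At 25 to 30 reads these were 79 of 165 new sites (47.9%) and 34 of 104 kept sites (32.7%). At 30 to 40 reads they were 61 of 113 new sites (54.0%) and 90 of 205 kept sites (43.9%). Among the strongest, with 40 reads or more, 20 of 24 new sites (83.3%) had it, against 106 of 179 kept sites (59.2%). Below 20 reads, the shares were 21.65% of 194 new sites and 21.4% of 28 kept sites. Day 5 Onecut1 turned as well (odds ratio 1.71, 1.26 to 2.33, adjusted p 5e-04, higher at new sites in 4 of 5 bands).

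Open chromatin and H3K27ac stayed lower at new sites at like p300 reads. Within bands, the odds ratio was 0.331 for day 6 ATAC (adjusted p 1.6e-10), 0.250 for day 5 ATAC (adjusted p 6e-20), 0.260 for day 6 H3K27ac (adjusted p 4.4e-16) and 0.265 for day 5 H3K27ac (adjusted p 1.5e-16) in the exact Cochran-Mantel-Haenszel test, each below 1 in 5 of 5 bands. At 40 reads or more, 22 of 24 new sites (91.7%) had day 6 ATAC, against 171 of 179 kept sites (95.5%), and 7 of 24 new sites (29.2%) had day 5 H3K27ac, against 100 of 179 kept sites (55.9%).

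**Figure D5:**
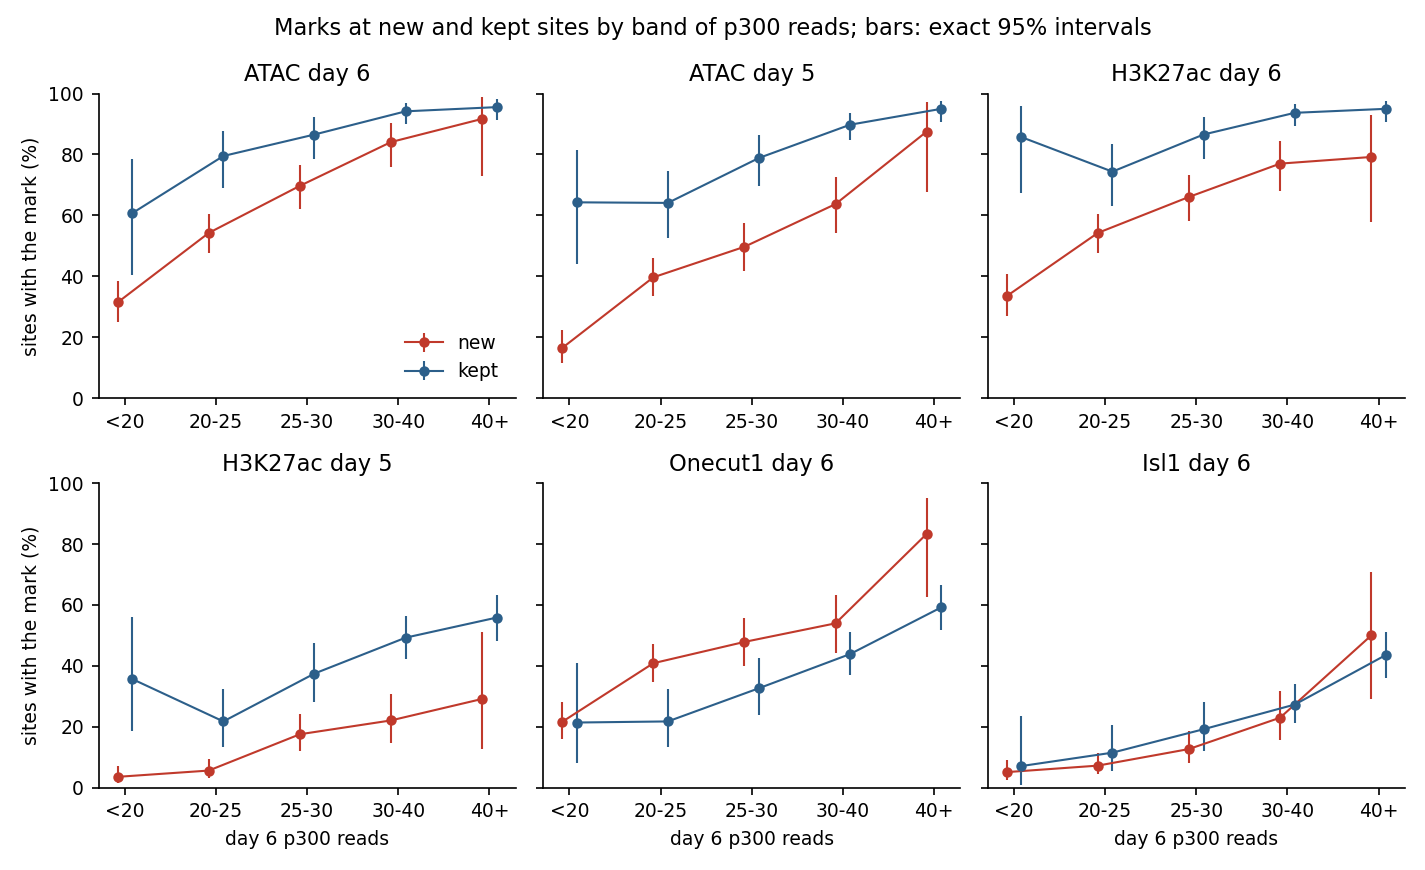
Share of new (red) and kept (blue) sites with 6 marks, in percent, by band of day 6 p300 reads; lines are exact 95% binomial intervals. New sites lie below kept ones for ATAC and H3K27ac of both days and above them for day 6 Onecut1, with 40.9% against 21.8% at 20 to 25 reads, while for day 6 Isl1 the classes lie close together.

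Isl1 was less frequent at new sites than at kept sites, and less clearly so at like p300 reads. On day 6, 87 new sites (11.7%, interval 9.49 to 14.2%) had an Isl1 event in at least 1 of the 2 libraries, against 165 kept sites (27.8%, interval 24.2 to 31.6%). The odds ratio was 0.345 (0.256 to 0.463), with an adjusted p of 2.2e-13 in Fisher's exact test. None of the 1486 positions 10 kb away had one (0%, with a floor of 3 counts at 0.202% and an exact upper bound of 0.248%). By library, 58 new sites had Isl1 in replicate 1 and 52 in replicate 2, against 123 kept sites in replicate 1 and 102 in replicate 2. Events in both libraries were found at 23 new sites and 60 kept sites. Within bands of p300 reads the odds ratio was 0.766 (0.537 to 1.09), and the difference no longer passed the exact Cochran-Mantel-Haenszel test (adjusted p 0.16). The share was higher at new sites in 1 of 5 bands. At 25 to 40 reads alone, 47 of 278 new sites (16.9%) had day 6 Isl1, against 76 of 309 kept sites (24.6%). That difference passed Fisher's exact test (adjusted p 0.032).

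Isl1 was almost never listed at new sites on day 5. Events of that day lay at 9 new sites (1.21%), against 80 kept sites (13.5%) and a background of 0.0673% (odds ratio 0.0789, adjusted p 5e-20), and the difference held within bands (odds ratio 0.200, adjusted p 5.9e-06). By library, 7 new and 63 kept sites had one in replicate 1, and 2 new and 43 kept sites in replicate 2. Of the 87 new sites with day 6 Isl1, 5 had it on day 5 as well (5.75%), against 50 of 165 kept sites (30.3%). The longest of the 4 Isl1 lists was that of day 5 replicate 1.

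The new sites were also set against the 18705 day 5 p300 sites that were not listed on day 6, a comparison added after seeing the data, in which the 2 classes come from different p300 libraries. Those day 5 sites were stronger calls in their own list. Their median was 54.3 reads and a −log10 q of 7.66, against 23 reads and 2.5 at new sites in the day 6 list. The classes were not matched for strength here. Each was chosen by p300 listed on 1 day and not on the other, so marks of either day are not independent of the rule. How much of the differences the rule builds in was not tested. Onecut1 of day 6 lay at 303 new sites (40.8%), against 2081 of the sites listed on day 5 alone (11.1%), an odds ratio of 5.50 (4.702 to 6.428, adjusted p 8.4e-90 in Fisher's exact test). Onecut1 of day 5, the day on which p300 was listed at the other class, lay at 26.8% of new sites and at 6.36% of the sites listed on day 5 alone (odds ratio 5.38, adjusted p 9.8e-64). Isl1 of day 6 was likewise more frequent at new sites, with 11.7% against 3.37% (odds ratio 3.805, adjusted p 8.4e-22), and Isl1 of day 5 less frequent, with 1.21% against 4.50% (adjusted p 1e-06).

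The early marks ran the other way. ATAC of day 2 lay at 12.1% of new sites and at 58.85% of the sites listed on day 5 alone (adjusted p 2.5e-149), and H3K27ac of day 4 at 10.9% of new sites and 64.5% of the others (adjusted p 1.8e-195). On day 6, when those sites were not in the p300 list, 79.5% of them had an H3K27ac peak, against 55.7% of the new sites (adjusted p 1.1e-45). For day 6 ATAC the shares were 57.5% at new sites and 74.0% at the others (adjusted p 1.7e-21), and this difference turned to 2.27 percentage points the other way (adjusted p 0.17) when peaks had to cover the p300 position. At a −log10 q of 5 or more, where 18 new sites remain, it was 6.98 points the other way (adjusted p 0.96).

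The factors of day 4, whose lists were short (3184 events for Ngn2 and 1629 for the library labelled Lhx3), were rare at new sites. Ngn2, a proneural factor that starts neuronal differentiation, had an event at 3 new sites (0.404%), against 17 kept sites (2.86%) and a background of 0% (adjusted p 0.00042). That difference did not pass within bands of p300 reads (odds ratio 0.504, adjusted p 0.41). The library labelled Lhx3 had an event at 2 new sites (0.269%), against 6 kept sites (1.01%) and a background of 0.135% (adjusted p 0.16). Its deposited list is named for Isl1, so the factor behind these events is uncertain.

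The day 6 marks were combined at many new sites. Counting day 6 ATAC, H3K27ac, Onecut1 and Isl1, 147 new sites (19.8%) had none of the 4, 181 had 1, 244 had 2, 122 had 3 and 49 (6.60%) had all 4. Kept sites with none numbered 12 (2.02%), and kept sites with all 4 numbered 102 (17.2%). p300 reads differed with the number of marks: new sites with none had a median of 18 reads (range 11 to 37) and new sites with all 4 a median of 31 (range 17.8 to 66). The most frequent combination was ATAC with H3K27ac and neither factor, at 138 new sites. ATAC, H3K27ac and Onecut1 without Isl1 were found at 90 new sites, ATAC and Onecut1 without H3K27ac or Isl1 at 56, and Onecut1 alone at 47. None of the 14 marks was found at 98 new sites (13.2%), with a median of 18 reads, against 4 kept sites (0.673%).

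Isl1 sites among the new ones were mostly open and mostly shared with Onecut1. Of the 87 new sites with day 6 Isl1, 83 (95.4%) had day 6 ATAC, against 52.4% of the 656 without Isl1. Onecut1 of day 6 lay at 66 of the 87 (75.9%), against 36.1% of the sites without Isl1. H3K27ac lay at 68 of the 87 on day 6 (78.2%) and at 6 of them on day 5 (6.90%). Kept sites showed the same for day 6 ATAC and Onecut1. Of the 165 kept sites with day 6 Isl1, 98.2% had day 6 ATAC and 65.5% day 6 Onecut1, against 86.5% and 33.8% of the 429 without. Of the 303 new sites with day 6 Onecut1, 210 (69.3%) had day 6 ATAC and 138 (45.5%) day 5 ATAC, against 49.3% and 38.0% of the 440 without Onecut1. These splits were not tested. The sites with Isl1 or Onecut1 also had more p300 reads, with a median of 28 reads at new sites with Isl1 against 22 without, and of 25 with Onecut1 against 21.05 without.

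The single sites show the same marks in values, given here as the authors' reads or scores on each list's own scale. The strongest new site, chr6:99793404, had 78.4 p300 reads and a fold of 12.8, and its nearest day 5 p300 event lay 74752 bp away. Its Onecut1 event, 2 bp away, had 273.1 reads on day 6 and 14 reads on day 5, and no Isl1 event was listed near it. ATAC had a score of 18.6 on day 6 and 16.5 on day 5, with no peak on days 2 and 4, and H3K27ac was listed on day 6 alone with a score of 4.39. This site was thus open and held Onecut1 on day 5, with reads near the median of 13 of the day 5 Onecut1 list. H3K27ac and p300 were listed on day 6, the H3K27ac score below the median of 13.3 of its list.

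At chr10:36507625, with 49 p300 reads, all 4 day 6 marks were present and both Isl1 libraries had an event. Isl1 had 66.3 and 20.3 reads on day 6 and was not listed on day 5, and Onecut1 had 325.9 reads on day 6 and 30.2 on day 5. The ATAC score was 56.7 on day 6 and 9.48 on day 5, and H3K27ac had a score of 58.06 on day 6, with the nearest day 5 peak 186473 bp away. Every one of these marks was listed higher on day 6 there, though on scales that are not shared between lists.

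At chr7:95616386, with 47 p300 reads, the factors were listed before p300. Onecut1 had 442.9 reads on day 6 and 289.4 on day 5, and Isl1 had 48 and 27 reads on day 6 and 33 reads in replicate 1 of day 5. ATAC was listed on both days, with a score of 38.9 on day 6 and 42.1 on day 5, on scales not shared between the lists. The day 4 library labelled Lhx3 had an event of 16 reads 59 bp away. H3K27ac was listed on day 6 alone, with a score of 4.9.

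chr10:13696274 had 66 p300 reads and all 4 day 6 marks. Onecut1 had 336 reads on day 6 and 23 on day 5, and Isl1 had 24 reads in replicate 1 of day 6 and no event in replicate 2. ATAC scores were 38.5 on day 6 and 25.1 on day 5. Its H3K27ac score was 30.16 on day 6, and the nearest day 5 peak lay 555 bp away, just past the 500 bp limit.

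Other strong new sites lacked 1 or more of the marks. chr2:95453819, with 56 p300 reads, had 324 Onecut1 reads on day 6 and 201 on day 5 and an ATAC score of 27.1 on day 6 and 36.5 on day 5, and its nearest day 6 H3K27ac peak was 88392 bp away. chr2:24329770, with 50 p300 reads, had 296.1 Onecut1 reads on day 6 and 70.1 on day 5, ATAC scores of 31.6 on day 6 and 15.6 on day 5, and no H3K27ac peak in any library. These 2 sites were open and held Onecut1, and Isl1 in 1 of the 2 day 6 libraries (13 and 15 reads), without listed H3K27ac.

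chr8:12165788, with 68 p300 reads, had no Onecut1 event within 200 bp on day 6 but 1 of 22.3 reads on day 5, and it was open from day 4 onwards with H3K27ac in both day 4 libraries. The site had no H3K27ac peak within 500 bp on day 5 and a peak with a score of 75.14 on day 6. Its control reads, 17.3, were the highest of the new sites. chr10:67012252, with 47 p300 reads and a fold of 3.1, was open on days 2, 4, 5 and 6 and had H3K27ac scores of 227.3 on day 6 and 119.7 on day 5, with neither Isl1 nor Onecut1. chr1:7387095, with 53 p300 reads, had no ATAC peak within 200 bp on any day, H3K27ac on days 4, 5 and 6 and an Ngn2 event of 73 reads on day 4. These 3 sites had their marks before day 6 and no Onecut1 event on day 6.

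The other sites among the 10 strongest had Onecut1 on day 6 alone. chr5:125639826, with 60 p300 reads, had 206 Onecut1 reads on day 6 and none within 200 bp on day 5, and its H3K27ac score was 200.5 on day 6 and 24.68 on day 5. chr14:95995797, with 54 p300 reads, had 170 Onecut1 reads on day 6, an ATAC score of 26.3 on day 6 and 20.1 on day 5, and an H3K27ac score of 20.19 on day 6 and 6.24 on day 5. Over the 10 new sites with the most p300 reads, 9 had ATAC on day 6 and 9 on day 5, 8 had H3K27ac on day 6 and 4 on day 5, and 7 had Onecut1 on day 6 and 6 on day 5. Isl1 was found at 4 of the 10 on day 6 and at 1 on day 5. The last of the 10, chr10:67012252, was tied at 47 reads with chr7:95616386.

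Of the 23 new sites with Isl1 in both day 6 libraries, 18 had Onecut1 on day 6 and 13 on day 5, 22 had ATAC on day 6 and 16 on day 5, and 19 had H3K27ac on day 6 and 1 on day 5. chr6:17450454, with 36 p300 reads, had 58 and 86 Isl1 reads on day 6 and none listed on day 5, 154.8 Onecut1 reads on day 6 and 12.5 on day 5, and ATAC scores of 32 on day 6 and 9.76 on day 5. chr6:50649112, also with 36 p300 reads, had 59 and 20 Isl1 reads on day 6 and 39 in replicate 1 of day 5, with 468.8 Onecut1 reads on day 6, the highest at any new site, and 216.3 on day 5. Both sites had H3K27ac on day 6 alone, with scores of 27.59 and 23.28.

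Isl1 without Onecut1 was also seen among them. chr4:76905424, with 35 p300 reads, had 20.9 and 40.2 Isl1 reads, an ATAC score of 28.8 and an H3K27ac score of 128.7 on day 6, none of these on day 5, with the nearest day 6 Onecut1 event 21707 bp away. It lay 1558406 bp from the nearest day 5 p300 event. chr13:112683828, with 34 p300 reads, had 86 and 21.2 Isl1 reads on day 6 and none on day 5, no Onecut1 on either day, and H3K27ac scores of 67.16 on day 6 and 10.87 on day 5.

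Among the 49 new sites with all 4 day 6 marks, 32 had ATAC, 33 Onecut1, 5 H3K27ac and 4 Isl1 on day 5. chr11:71824006, with 42 p300 reads, had none of the 4 on day 5. On day 6 it had an ATAC score of 13.4, an H3K27ac score of 61.79, 109.7 Onecut1 reads and 9 Isl1 reads in replicate 2. chr11:75655531, with 44 p300 reads, had 3 of the 4 on day 5: Onecut1 had 271.6 reads on day 6 and 70.4 on day 5, ATAC scored 10.5 on day 6 and 5.58 on day 5, and H3K27ac scored 100.3 on day 6 and 14.74 on day 5.

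Transcripts of p300 and of most enzymes that set or remove histone acetylation stayed within 2-fold between the days, with 1 RNA library a day and no test. Ep300 had 12.6 FPKM on day 6 and 13.7 FPKM on day 5, and Crebbp, which encodes the related coactivator CBP, had 4.702 FPKM on day 6 and 6.40 FPKM on day 5. Of 21 listed acetyltransferases, deacetylases and readers, 19 reached 1 FPKM on either day, 0 were 2-fold higher on day 6 and 1 was 2-fold lower, where the shares over 11164 such genes were 6.57% and 6.19%. With a pseudocount of 0.1 FPKM in place of 1, Hdac9, a histone deacetylase, was also counted as higher (1 higher and 1 lower), with 3.43 FPKM on day 6 and 1.36 FPKM on day 5. The median difference of the list was 0.03 on the log2(FPKM + 1) scale, beside -0.07 over all such genes. The lower one was Hdac1, a class I deacetylase, with 5.17 FPKM on day 6 and 18.3 FPKM on day 5, whereas its close relative Hdac2 had 100 FPKM on day 6 and 89.0 FPKM on day 5. The value of Hdac1 is uncertain, because reads can be shared with its pseudogene Hdac1-ps.

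The factors mapped at the new sites split in their RNA. Onecut1 had 14 FPKM on day 6 and 12.5 FPKM on day 5, and its relative Onecut2 had 18.4 FPKM on day 6 and 15.6 FPKM on day 5. Lhx3, the LIM homeodomain partner of Isl1, had 3.90 FPKM on day 6 and 24.1 FPKM on day 5, and Neurog2, which encodes Ngn2, had 0.899 FPKM on day 6 and 29.9 FPKM on day 5. These are levels over whole cultures, in which a change in the share of cells and a change in RNA per cell cannot be told apart.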

How the data were processed

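The authors processed the reads on build mm9 with, per the submitters' processing notes, STAR, MACS, HOMER 4.7.2 and Bowtie 0.12.7, whose roles are not given. The factor and p300 event lists, 1 per library, give per the file headers precipitated and scaled control reads (a signal), their fold (a ratio), −log10 q and p, and a noise score. The deposited ATAC peak lists give a score and a p-value per peak, and the deposited H3K27ac, Ngn2 and day 0 DNase lists a score per peak. RNA was deposited as FPKM per gene, as the authors computed it. Read depth per library is not given, and scores are compared within a list alone. Of 26 samples, 23 were analysed; the control libraries (IgG and whole-cell extract) were not used here.

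Distances were computed with Python 3.11.15 and NumPy 2.4.6, Fisher's exact tests with SciPy 1.17.1 and the exact Cochran-Mantel-Haenszel tests in R 4.3.3, with an adjusted p of 0.05 as threshold. The distance search was checked on simulated positions. RNA differences use log2(FPKM + 1) for genes at 1 FPKM or more on either day; 32798 of 37450 gene IDs matched a current symbol, and Hdac4 and Ebf1 had no single entry. The sites named are the 10 new sites with the most p300 reads, up to 10 with Isl1 in both day 6 libraries, 10 with all 4 day 6 marks, and 5 to each side of the limit; not each is printed. Members, lists and rules were chosen with earlier results of these data known. Where nothing says that libraries came from separate cultures, differences between them may be technical.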

Additional observations from a re-analysis of the deposited data

How the results depend on the processing

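The number of new sites was 762, 730 and 710 with limits of 250, 1000 and 2000 bp, 735 with events within 1000 bp counted once, 603 at a fold of 5 or more, and 18 at a −log10 q of 5 or more. With those 18 new and 72 kept sites, the differences (new minus kept, in percentage points) were -6.94 for day 6 ATAC (adjusted p 0.67, Fisher's exact test here and below), -20.8 for day 5 ATAC, -16.7 for day 6 H3K27ac and -25 for day 5 H3K27ac (adjusted p 0.27 each) and -13.9 for day 5 Isl1 (adjusted p 0.67), no longer past the threshold, while day 6 Isl1 (2.78), day 6 Onecut1 (8.33) and day 5 Onecut1 (2.78) turned to higher at new sites (adjusted p 1 each). Fewer sites enter there. Onecut1 passed in opposite directions under different choices of sites, and the cause was not tested. At a fold of 5 or more it passed as lower at new sites (-8.05 on day 6, adjusted p 0.026, and -8.73 on day 5, adjusted p 0.01). On day 5 it also passed with entries at or above the median score of each list (-8.53, adjusted p 0.00054) and with events within 1000 bp counted once (-5.41, adjusted p 0.038). At 25 to 40 p300 reads it was higher at new sites (10.2 on day 6, adjusted p 0.022, and 6.05 on day 5, adjusted p 0.15), and within bands of reads the odds ratios were 1.85 and 1.71, against 0.766 for day 6 Isl1, which no longer passed, and 1.31 for the library labelled Lhx3 (adjusted p 0.67). At 25 to 40 reads, day 6 Isl1 still passed as lower at new sites (-7.69, adjusted p 0.032). Rare marks reversed by 1 site: day 0 DNase at 0 bp (0.135) and the labelled Lhx3 library at or above the median score (0.135). Against the day 5 sites not listed on day 6, day 6 ATAC turned to 6.98 at a −log10 q of 5 and 2.27 at 0 bp, day 5 Isl1 to 0.677 at a −log10 q of 5 and day 0 DNase to 0.0918 at 0 bp. Leaving out 1 library gave -12.9 to -10.2 for day 6 Isl1, -9.66 to -6.97 for day 5 Isl1 and -21.4 to -16.1 for day 4 H3K27ac, all past the threshold. A pseudocount of 0.1 FPKM gave 1127 genes higher and 1077 lower on day 6, in place of 734 and 691. No paired analysis was possible because no result comes from a test over samples. Unknown read depth limits what absence from a list can show.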

Other observations

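Of 20 chromosomes, 1 differed between new and kept sites. Chromosome 10 held 38 new sites (5.11%) against 11 kept sites (1.85%), an odds ratio of 2.86 (1.41 to 6.25), with an adjusted p of 0.036 over 20 chromosomes in Fisher's exact test; 4.42% of all day 5 p300 events lay on it, so that its share was near that list's at new sites and lower at kept sites. Chromosome 7 held 72 new sites (9.69%) against 33 kept sites (5.56%) and did not pass (adjusted p 0.056). The X chromosome held 2 new sites and 1 kept site, against 300 of the 19398 day 5 events (1.55%).

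The new sites without any of the 14 marks had a higher median fold than those with all 4 day 6 marks. These 98 sites had a median of 18 p300 reads over 1.9 control reads and a median fold of 9.7, and the 49 new sites with all 4 day 6 marks had a median of 31 reads over 5.1 control reads and a median fold of 5.8. The control reads thus differed with the marks as the p300 reads did, and their part in the result was not tested.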
